A study of Mus musculus with 10 samples.

Results

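Close neighbouring gene pairs were examined for H3K4me3 (histone H3 trimethylated at lysine 4, a mark of promoters) in neuronal nuclei of mouse hippocampal area CA1. A close pair was defined as adjacent, non-overlapping autosomal protein-coding genes whose facing ends lay 1 to 1000 bp apart in the RefSeq annotation of GRCm38.p6 (mm10 coordinates). Of 20665 autosomal protein-coding genes, 3542 belonged to at least 1 such pair and 374 to 2 pairs, which gave 1958 pairs. The stretch between the facing gene ends is called the gap, and the measured region was the gap with 2 kb on both sides. Of the other gene ends, 37414 single windows of 2 kb to each side served as comparison, so that the pairs made up 1958 of 39372 regions.

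The 4 libraries of the transgenic group (TG) came from mice that carry a CaMKIIδC transgene; CaMKIIδC is one splice variant of a calcium/calmodulin-dependent kinase. The 4 libraries of the control group (WT) came from wild-type littermates. All were labelled as 3 months old and male. Per the labels' protocols, CA1 was dissected, NeuN-positive (neuronal) nuclei were collected by sorting, and their chromatin was precipitated with an H3K4me3 antibody and read as single 50-bp ends. The promoter that drives the transgene is not given in the sources used here. The protocol text also describes drinking water with vorinostat, an inhibitor of histone deacetylases, or with vehicle, started at 2 months of age for 4 weeks. None of the 8 libraries carries a drug label. Whether each library is a separate animal is not stated, so a p-value covers only the spread between these libraries, which may be technical.

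Neighbouring genes can face each other in 3 ways. In a head-to-head pair both genes start at the gap and are read away from each other, and many such gaps act as a bidirectional promoter, a design that is frequent among housekeeping genes of DNA repair, mitochondria and chromatin. In a head-to-tail pair 1 gene starts where the other ends, and in a tail-to-tail pair the gap lies between the ends of both genes. H3K4me3 sits on the nucleosomes beside active or poised start sites, while the open stretch where transcription begins is often free of nucleosomes, so the mark tends to be lower there than on both sides.

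The gaps of head-to-head pairs that the results turn on are shown here as RefSeq sequence of GRCm38.p6, on the plus strand, 5′ to 3′. Capitals mark 4 short motifs on either strand, which are the CCAAT box, the Sp1-type box GGGCGG, the ETS-type site CCGGAAG and the NRF1 core GCATGCGC, and motifs that overlap each other are capitalised as 1 run. The first set holds long-known close pairs and H2A-H2B histone pairs whose gap carried a peak in all 8 libraries. The gaps lie at chr7:28741822-28741956 (Mrps12-Sars2), chr11:101551956-101552106 (Brca1-Nbr1), chr17:34187331-34187555 (Psmb9-Tap1), chr7:140882310-140882393 (Sirt3-Psmd13), chr13:21716184-21716411 (H2bc13-H2ac13) and chr13:23571221-23571399 (H2ac8-H2bc8). The annotation places each of them between the 2 genes, outside any exon or intron of either.
Mrps12-Sars2: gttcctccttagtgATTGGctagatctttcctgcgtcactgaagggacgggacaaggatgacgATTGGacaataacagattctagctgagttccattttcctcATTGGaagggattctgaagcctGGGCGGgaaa
Brca1-Nbr1: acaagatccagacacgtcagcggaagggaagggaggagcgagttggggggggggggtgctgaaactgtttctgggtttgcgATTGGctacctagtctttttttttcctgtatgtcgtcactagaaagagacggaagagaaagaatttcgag
Psmb9-Tap1: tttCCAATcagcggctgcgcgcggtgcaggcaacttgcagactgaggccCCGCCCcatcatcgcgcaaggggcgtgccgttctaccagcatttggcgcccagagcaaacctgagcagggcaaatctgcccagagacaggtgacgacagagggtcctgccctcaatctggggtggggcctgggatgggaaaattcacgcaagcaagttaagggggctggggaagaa
Sirt3-Psmd13: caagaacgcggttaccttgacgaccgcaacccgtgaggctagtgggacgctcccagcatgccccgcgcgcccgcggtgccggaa
H2bc13-H2ac13: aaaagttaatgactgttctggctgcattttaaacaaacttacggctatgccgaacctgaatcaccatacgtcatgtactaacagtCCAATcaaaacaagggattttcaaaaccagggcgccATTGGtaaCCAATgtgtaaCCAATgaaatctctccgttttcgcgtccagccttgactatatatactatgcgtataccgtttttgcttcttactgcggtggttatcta
H2ac8-H2bc8: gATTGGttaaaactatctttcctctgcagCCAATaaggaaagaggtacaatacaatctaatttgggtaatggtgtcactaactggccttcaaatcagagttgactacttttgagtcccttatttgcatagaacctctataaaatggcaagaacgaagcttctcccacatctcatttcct

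The second set shows a gap with a deep dip in coverage (Eif3k-Map4k1, chr7:28981891-28982049), a gap marked in 2 libraries (Atm-Npat, chr9:53536829-53536888), and gaps of pairs with small p in either direction between the genotypes (Dad1-Abhd4, chr14:54253930-54254128, and Atp5c1-Kin, chr2:10080511-10080550). The Eif3k-Map4k1 gap holds a long unbroken run of T.
Eif3k-Map4k1: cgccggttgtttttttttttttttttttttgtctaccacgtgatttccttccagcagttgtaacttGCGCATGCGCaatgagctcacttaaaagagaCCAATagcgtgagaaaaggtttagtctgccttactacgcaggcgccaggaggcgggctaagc
Atm-Npat: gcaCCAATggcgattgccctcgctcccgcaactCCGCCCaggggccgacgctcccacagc
Dad1-Abhd4: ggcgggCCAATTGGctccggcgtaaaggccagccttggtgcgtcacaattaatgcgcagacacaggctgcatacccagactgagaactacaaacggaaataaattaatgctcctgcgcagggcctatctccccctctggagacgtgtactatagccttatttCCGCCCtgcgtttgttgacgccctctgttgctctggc
Atp5c1-Kin: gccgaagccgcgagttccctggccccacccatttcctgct

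The third set shows head-to-head gaps without a peak in any library. The Nfya-Oard1 gap (chr17:48409821-48409956) lay between flanks that were marked on average over the 8 libraries. The region around the Ngef-Neu2 gap (chr1:87573871-87574026) was bare, and that around the H2bc23-H2ac23 gap (chr13:21810200-21810366) nearly so. The Ngef-Neu2 gap had a G+C content of 60.9% but 0 CpG dinucleotides in 156 bp, whereas the Nfya-Oard1 gap had 12 in 136 bp.
Nfya-Oard1: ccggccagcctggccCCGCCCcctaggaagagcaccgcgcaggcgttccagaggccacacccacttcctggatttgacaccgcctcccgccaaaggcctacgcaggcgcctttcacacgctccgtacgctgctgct
Ngef-Neu2: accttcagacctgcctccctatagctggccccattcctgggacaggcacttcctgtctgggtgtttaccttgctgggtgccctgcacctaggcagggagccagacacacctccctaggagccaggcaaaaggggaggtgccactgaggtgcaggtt
H2bc23-H2ac23: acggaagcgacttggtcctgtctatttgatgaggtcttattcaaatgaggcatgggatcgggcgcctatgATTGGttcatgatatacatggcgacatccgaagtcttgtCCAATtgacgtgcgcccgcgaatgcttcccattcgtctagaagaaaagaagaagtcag

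Each library had its own deposited peak list without read counts, which leaves the depth unknown. The lists held 60388 to 102285 peaks in TG libraries and 51903 to 66811 in WT libraries. TG replicate 1 stood apart, with the most peaks (102285) but the fewest marked gaps. A peak lay over the gap of 869 pairs in TG replicate 1 and of 1003, 1037 and 1051 pairs in TG replicates 2, 3 and 4. In WT replicates 1, 2, 3 and 4 the numbers were 969, 972, 974 and 1045. Values without TG replicate 1 are given where it moves a result. As a check of the labelled cells, 8 of 8 neuronal marker genes had a peak at a gene end in all 8 libraries, against 1 of 4 for astrocytes (Gjb6), 1 of 4 for oligodendrocytes (Mbp), 0 of 4 for microglia, 1 of 4 for endothelium (Cldn5) and 1 of 4 for cardiomyocytes (Actn2). The part of other cells in the results below was not tested.

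Close pairs fell mostly into the extremes of presence. The gap carried a peak, with an overlap of at least 1 bp, in all 8 libraries in 823 pairs (42%), in 1 to 7 libraries in 281 pairs (14.4%) and in no library in 854 pairs (43.6%). Without TG replicate 1, the gap was marked in all remaining libraries in 898 pairs. In 608 pairs no library had a peak anywhere in the region, while 154 of the 854 pairs with a bare gap had a peak elsewhere in the region in all 8. A non-coding RNA gene of the annotation lay over the gap in 74 pairs. At the upper limit of gap length, 16 of 46 pairs with gaps of 951 to 1000 bp were marked in all 8 and 24 in none. Just outside it, 13 of 35 pairs with gaps of 1001 to 1050 bp were marked in all 8 and 21 in none.

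The orientation of the genes separated the marked gaps from the bare ones. It was known from the strand of both genes for 1396 pairs (71.3%); for the other 562, at least 1 gene had no entry in the table that gives strand. Of 547 head-to-head pairs, 413 (75.5%) had a gap peak in all 8 libraries, 106 (19.4%) in some and 28 (5.12%) in none. Of 435 head-to-tail pairs, 192 (44.1%) were marked in all 8 and 162 (37.2%) in none. Of 414 tail-to-tail pairs, 8 (1.93%) were marked in all 8 and 392 (94.7%) in none, and 287 of the tail-to-tail pairs had no peak anywhere in the region. Read the other way, the 582 bare gaps of known orientation were 67.4% tail to tail, 27.8% head to tail and 4.81% head to head. The 613 gaps marked in all 8 were 67.4% head to head, 31.3% head to tail and 1.31% tail to tail. The name shared promoter therefore fits the annotation of the head-to-head pairs, and the bare class was mostly, but not wholly, tail to tail.

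**Figure D1:**
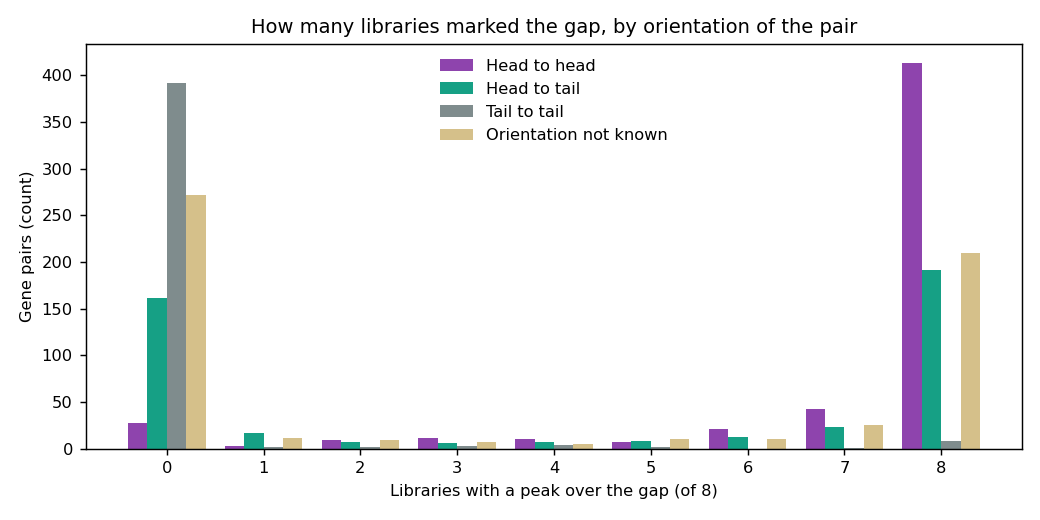
Number of close gene pairs (y axis) by how many of the 8 libraries had a peak over the gap (x axis), with 1 bar per orientation of the pair. Head-to-head pairs pile up at 8 libraries (413 of 547), tail-to-tail pairs at 0 (392 of 414), and head-to-tail pairs at both ends (162 at 0 and 192 at 8).

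Gap length differed between the orientations, and the contrast between them was present within each length class. The median gap was 102 bp in head-to-head pairs, 449 bp in head-to-tail pairs and 381.5 bp in tail-to-tail pairs. Head-to-head pairs had a gap peak in all 8 libraries in 62.7% of 142 pairs with gaps of 1 to 50 bp and in 88.7% of 62 pairs with gaps of 201 to 300 bp, the lowest and highest shares over the 6 length classes. In tail-to-tail pairs the share was between 0% and 3.45% in every length class. Head-to-tail pairs lay between them, with 20% of 15 pairs at 1 to 50 bp and 50.0% of 190 pairs at 501 to 1000 bp.

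Averaged over the 413 head-to-head pairs marked in all 8, coverage formed a broad plateau over both starts with a shallow dip at the centre. Coverage is the percent of bases under a peak, in bins of 50 bp. The bin centred 25 bp left of the gap centre was covered to 90.3 ± 6.77% in TG libraries and 92.5 ± 1.99% in WT libraries (mean ± SD, n = 4 each). At 225 bp to the right it was 95.6 ± 3.65% in TG and 96.6 ± 1.21% in WT libraries. At 1025 bp to the right it was 56.8 ± 1.39% in TG and 54.3 ± 2.90% in WT libraries. These pairs were chosen for a gap peak. Over all 547 head-to-head pairs, the bin 25 bp left of the centre was covered to 77.9 ± 10.8% in TG and 80.1 ± 4.51% in WT libraries. Over all 414 tail-to-tail pairs the same bin was nearly bare, at 2.64 ± 0.54% in TG and 1.70 ± 0.35% in WT libraries. In the 8 tail-to-tail pairs marked in all 8 libraries it was 89.3 ± 4.28% in TG and 69.2 ± 5.28% in WT libraries. At 225 bp to the right these pairs had 69.8 ± 6.24% in TG and 66.9 ± 5.92% in WT libraries. They were chosen for a gap peak and are so few that 1 pair weighs heavily on a bin. The difference between the genotypes in these bins was not tested. In head-to-tail pairs marked in all 8, the plateau lay inside the gene that starts at the gap, with 92.1 ± 7.35% in TG and 94.3 ± 2.52% in WT libraries 475 bp from the gap centre on that side, against 9.46 ± 0.46% in TG and 9.60 ± 0.59% in WT libraries 1025 bp from it on the side of the ending gene.

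**Figure D2:**
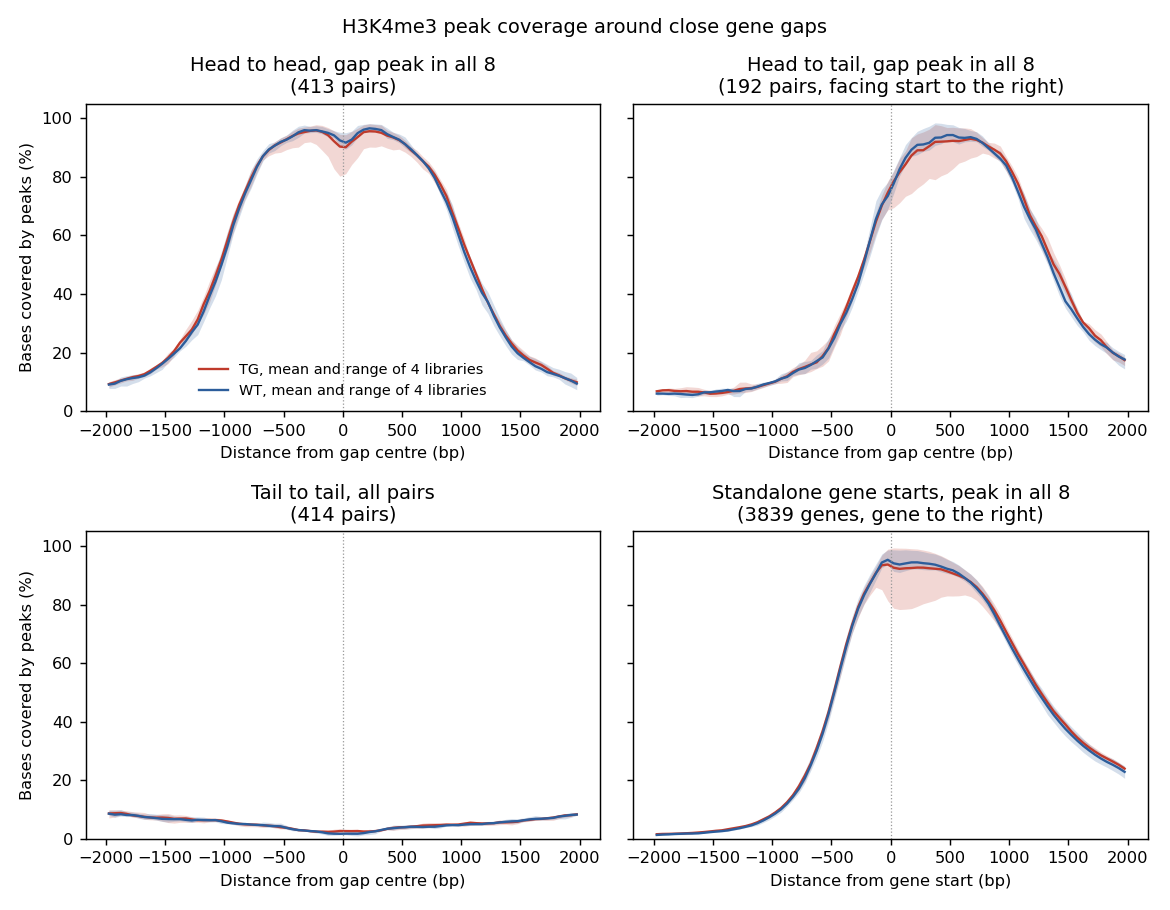
Percent of bases covered by peaks (y axis) by distance from the gap centre or gene start in bp (x axis), for head-to-head, head-to-tail and tail-to-tail pairs and for standalone gene starts; lines are the means of 4 libraries and shaded bands their lowest and highest values. Head-to-head and head-to-tail pairs and standalone starts are those with a peak in all 8 libraries, while the tail-to-tail panel shows all pairs. Head-to-head gaps sit in a plateau with a dip at 0 that is deepest in 1 TG library, tail-to-tail gaps stay under 10%, and the TG and WT lines run close together.

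On average, genes of head-to-head pairs carried a shorter mark inside the gene than standalone starts did, although single genes exceeded that average. Standalone starts were taken as the 5′ ends of annotated genes with no other coding gene within 5 kb upstream. Of these, 3839 of 11386 were marked in all 8, judged with a 100-bp window at the start. The pairs were chosen by a peak over the gap instead, so the 2 selections differ. The first 2 kb of each gene in the 413 pairs held on average 1034 ± 28 bp of peak in TG and 1023 ± 31.6 bp in WT libraries. The first 2 kb downstream of standalone starts held 1284 ± 69.0 bp in TG and 1276 ± 40.1 bp in WT libraries, and the 2 kb upstream of them 533 ± 21.0 bp in TG and 526 ± 23.4 bp in WT libraries. The whole region of a pair held 2228 ± 67.5 bp in TG and 2208 ± 66.0 bp in WT libraries (all mean ± SD, n = 4 each). The same pairs and starts were chosen for their peaks, so these lengths are descriptions, with no test.

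The dip was measured as the percent of the gap covered minus the percent covered within 500 bp outside its edges. Over the 413 pairs it was −6.40, −0.88, −1.16 and −0.41 percentage points in TG replicates 1 to 4 and −0.90, −1.96, −1.24 and −0.13 in WT replicates 1 to 4. All 8 libraries were below 0, TG replicate 1 was the lowest, and the other TG libraries lay within the WT range. The means were −2.21 ± 2.81 in TG and −1.06 ± 0.76 in WT libraries. Without TG replicate 1, which admits other pairs to the class, they were −1.27 in TG and −2.08 in WT libraries. These pairs were chosen for a peak over the gap, and over all 547 head-to-head pairs the dip was −7.93 ± 5.85 in TG and −6.84 ± 2.86 in WT libraries. The sign depends on how far the flank reaches: with 1000 bp, where coverage already falls away, the difference was 7.79 points in TG and 9.74 in WT libraries. Where both flanks were at least 50% covered in a library (358 to 389 of the 413 pairs in TG and 381 to 389 in WT libraries), gaps with a peak but not covered from end to end made up 30.4, 10.5, 10.8 and 7.46% in TG replicates 1 to 4 and 13.1, 15.7, 13.5 and 8.23% in WT replicates 1 to 4.

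The called summit, the point of highest enrichment that the peak caller reports, seldom lay in the gap. The peak over the gap had its summit inside it in 22, 12, 13 and 9 of the 413 pairs in TG replicates 1 to 4 (5.33, 2.91, 3.15 and 2.18%) and in 14, 15, 12 and 9 in WT replicates 1 to 4 (3.39, 3.63, 2.91 and 2.18%). The gap held 6.69 to 7.32% of the covered bases of these regions in TG and 7.13 to 7.55% in WT libraries, more than its share of summits in every library. In 379 pairs no library placed the summit in the gap, and in 3 pairs all 8 did. The side was fixed in some pairs and free in others: 79 pairs had the summit left of the gap in all 8 and 87 right of it, while 213 pairs had it on both sides in different libraries but never in the gap. These peaks ranked high, with a mean fold-enrichment percentile within the library of 93.2 ± 0.71 in TG and 92.5 ± 0.98 in WT libraries; the fold enrichment is the authors' value for each peak.

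The mark was not shared evenly between the 2 genes of a pair. Over the first 2 kb of each gene, the same gene was the more covered one in all 8 libraries in 274 of 413 pairs (66.3%). The median was 1184 bp on the wider side and 811 bp on the narrower, which follows in part from sorting the sides. In 89 pairs (21.5%) the wider side had at least 2 times the length of the narrower. Brca1-Nbr1 was an uneven case, with a mean of 229 bp on the side of Brca1, a DNA repair gene, and 1831 bp on the side of Nbr1, a receptor of selective autophagy. Atp5c1, the gamma subunit of mitochondrial ATP synthase, had 1914 bp against 932 bp for Kin, a nucleic-acid-binding protein. Mrps12, of the small mitochondrial ribosomal subunit, had 917 bp against 765 bp for Sars2, the mitochondrial seryl-tRNA synthetase, which was close to even.

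The 7 long-known close pairs of the list that met the rule were nearly all marked, at lengths that overlapped between the genotypes. The list had 14 pairs, and the others, such as Hspd1-Hspe1 and Surf1-Surf2, did not meet the rule in this annotation. The Pdcd10-Serpini1 region (chr3, gap 640 bp), which joins a cerebral cavernous malformation gene to neuroserpin, held 3616, 3274, 3705 and 3608 bp in TG and 3475, 3480, 3578 and 3483 bp in WT libraries. The 3 highest values were in TG libraries, but so was the lowest.

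Brca1-Nbr1 held 2095, 2195, 2210 and 2241 bp in TG and 1902, 2176, 2223 and 2203 bp in WT libraries. Its gap was covered by 43, 107, 64 and 94 bp in TG and by 86, 131, 151 and 88 bp in WT libraries, so that only WT replicate 3 covered all 151 bp. Mrps12-Sars2 held 1715, 1648, 2025 and 1804 bp in TG and 1926, 1890, 1778 and 1749 bp in WT libraries. Its gap, with 3 CCAAT boxes and a GGGCGG box, was covered from end to end in all 8.

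Psmb9-Tap1 joins an immunoproteasome subunit to a peptide transporter of antigen presentation, 2 immune genes, and its gap of 225 bp was also covered whole in all 8 neuronal libraries. The region held 1813, 1861, 1664 and 1719 bp in TG and 1830, 1845, 1759 and 1832 bp in WT libraries. Sirt3-Psmd13, a mitochondrial deacetylase beside a subunit of the proteasome's regulatory cap, held 2010, 1982, 1982 and 2120 bp in TG and 1848, 2269, 1778 and 2242 bp in WT libraries; the TG values lay inside the WT range. Mcm4-Prkdc, a subunit of the replicative helicase beside the catalytic subunit of DNA-dependent protein kinase, held 1838, 1985, 2256 and 1934 bp in TG and 1948, 2187, 2067 and 2183 bp in WT libraries.

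Atm-Npat was the exception at the gap. Atm encodes a kinase of the DNA damage response and Npat a coactivator of histone genes. The region held 2008, 2260, 2602 and 2236 bp in TG and 2057, 2245, 2446 and 2187 bp in WT libraries, with both flanks over 90% covered on average (90.5% and 95%). The gap of 60 bp was covered in full in TG replicate 3 and WT replicate 3 and by 0 bp in the other 6. The log2 differences of the 7 pairs ran from −0.09 (Mcm4-Prkdc, SE 0.06, limma adjusted p = 0.967) to 0.01 (Brca1-Nbr1, SE 0.05, adjusted p = 1.00), and none passed the test.

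H2A-H2B pairs, which in replication-dependent core histone genes usually stand head to head, ranged widely in covered length. For H2ac20-H2bc21 and H2ac6-H2bc4 the orientation was unknown here; the others were head to head. Histone genes are near-identical copies, and how the authors placed reads that match several of them is not given in the sources used here, so their values are uncertain. H2ac20-H2bc21 held 3003, 3300, 3264 and 3379 bp in TG and 3364, 3204, 3343 and 3281 bp in WT libraries. H2bc13-H2ac13 held 2152, 2875, 2428 and 3072 bp in TG and 2039, 1817, 2666 and 2584 bp in WT libraries. H2ac8-H2bc8, whose gap has a G+C content of 38.5% and 1 CpG, held 1914, 2710, 2300 and 2598 bp in TG and 2090, 2267, 2270 and 2393 bp in WT libraries, and its gap was covered whole in 7 of 8.

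At the low end, H2bc23-H2ac23 held 165, 300, 304 and 301 bp in TG and 293, 173, 302 and 302 bp in WT libraries, all outside the gap. H2bc1-H2ac1 had no peak in any library; both genes are known for testis-specific histone variants. H2ac22-H2bc22, among the 5 narrowest pairs with a gap peak in all 8, held 306, 923, 301 and 749 bp in TG and 474, 550, 619 and 1080 bp in WT libraries. The 2 groups overlapped in every histone pair with a peak.

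**Figure D3:**
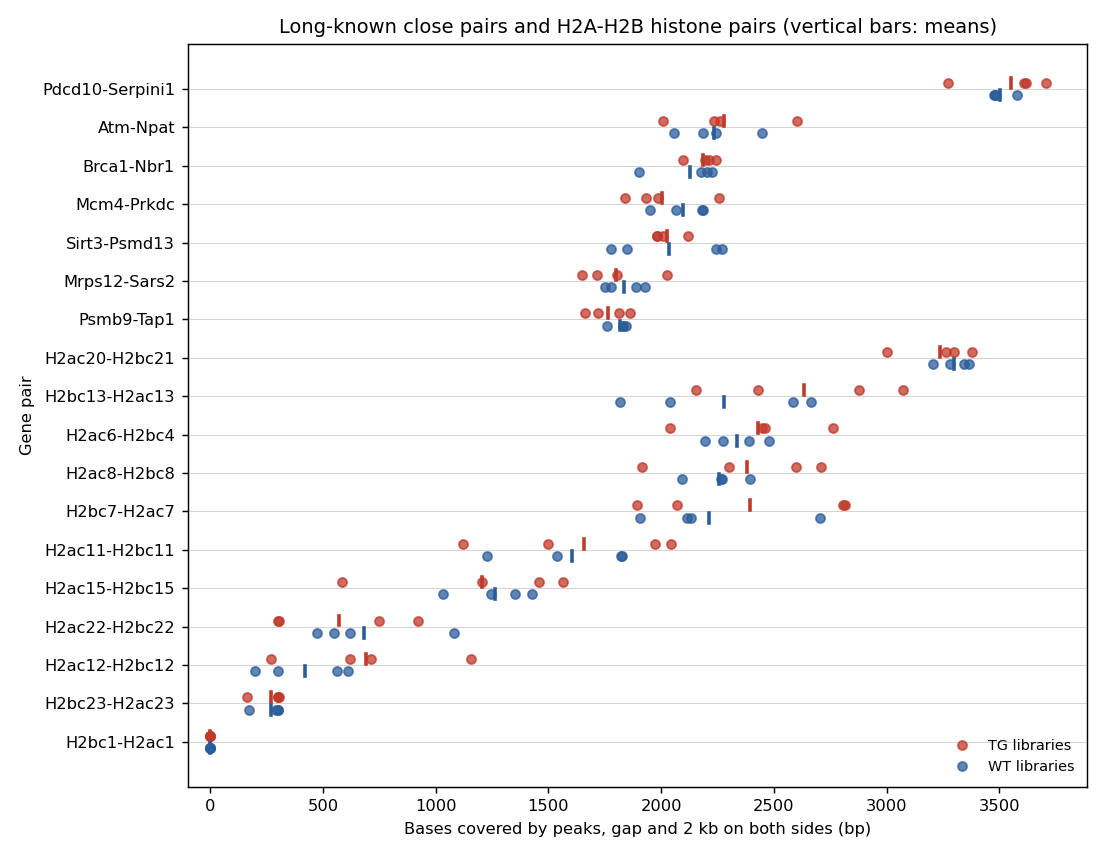
Bases covered by peaks in the gap and 2 kb on both sides (x axis, bp) for the 7 long-known close pairs and the H2A-H2B pairs (y axis); each point is 1 library, with TG in red above WT in blue, and vertical bars are group means. TG and WT points overlap in each pair, and the histone pairs run from about 3300 bp (H2ac20-H2bc21) to no peak (H2bc1-H2ac1).

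The 5 widest regions with a gap peak in all 8 libraries included genes of neurons and of chromatin. Cdk5r1-Myo1d, with the neuronal activator of the kinase Cdk5, averaged 4417 ± 420.0 bp in TG and 4552 ± 258.3 bp in WT libraries. Ppfia3-Lin7b, both encoding proteins of the presynaptic scaffold, averaged 4662 ± 97.3 bp in TG and 4512 ± 354.7 bp in WT libraries. Cdc40-Wasf1, Bet1l-Ric8a and Rhof-Setd1b had means between 4095 and 4268 bp; Setd1b itself encodes a methyltransferase that places H3K4me3, and Wasf1 an organiser of the actin cytoskeleton. These lengths were near the limit set by the window, so wider marks went unmeasured. The narrowest pairs with a gap peak in all 8, beside H2ac22-H2bc22, were the head-to-tail pairs Krit1-Lrrd1, Xaf1-Fbxo39, H2ac4-H3c2 and H3c15-H2ac19. Krit1-Lrrd1 averaged 420 ± 75.2 bp in TG and 379 ± 51.7 bp in WT libraries.

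Among pairs marked in all 8 with gaps of at least 100 bp and both flanks at least 50% covered, the deepest dip was at Eif3k-Map4k1, a translation initiation factor subunit beside a kinase of blood cells. Peaks covered 32, 45, 64 and 18 of its 159 bp in TG and 21, 22, 59 and 27 bp in WT libraries, while the flanks were 100% and 95.6% covered. No library covered the gap whole. Urod-Hectd3, Chtf18-Rpusd1, Xrcc3-Zfyve21 and Swi5-Golga2 followed, with gaps 27.8 to 40.6% covered between flanks of 84.2 to 100%. Urod encodes an enzyme of haem synthesis, and Xrcc3 and Swi5 act in recombinational repair. At Swi5-Golga2, WT replicate 4 covered all 150 bp of the gap and the other 7 libraries 21 to 72 bp. At the other extreme of the same pairs, the gap was more covered than its flanks at Donson-Cryzl1, Nbeal2-Ccdc12, Lrrc45-Rac3, Eml3-Mta2 and Mip-Timeless, by 22.7 to 38.7 percentage points. Of these 5, Nbeal2-Ccdc12 was head to head and the other 4 head to tail, and a non-coding RNA gene was annotated over the gap in 3 of them (Gm10785, Gm10353 and Gm26847).

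Head-to-head pairs marked in some libraries only mostly had marked flanks. Of the 106 such pairs, 87 had both flanks covered by at least 50% on average over the 8 libraries. The gap carried a peak in 15, 71, 88 and 98 of the 106 in TG replicates 1 to 4 and in 64, 65, 64 and 98 in WT replicates 1 to 4. Replicate 4 had the most in both genotypes and TG replicate 1 the fewest, and the groups overlapped. Within the libraries that lacked the gap peak, both flanks were at least 50% covered in 47 of 91, 19 of 35, 11 of 18 and 5 of 8 pairs in TG replicates 1 to 4 and in 22 of 42, 18 of 41, 26 of 42 and 3 of 8 in WT replicates 1 to 4. In the rest, at least 1 flank was under 50% covered in that library. Of 43 pairs marked in 7 of 8 libraries, the missing one was TG replicate 1 in 35. Without TG replicate 1, 448 of 547 head-to-head pairs (81.9%) were marked in all remaining libraries, while the number for tail-to-tail pairs stayed at 8.

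Safb2-Safb, which pairs 2 scaffold attachment factors, had flanks covered to 90.3% and 98.7%, but its gap of 306 bp held 0, 2, 0 and 62 bp of peak in TG and 2, 0, 0 and 65 bp in WT libraries. Replicate 4 of both genotypes gave nearly all of it. Txndc16-Gpr137c held 0, 0, 27 and 78 bp in TG and 0, 19, 0 and 22 bp in WT libraries over its gap of 133 bp. At the sparse end of this class, Plekhn1-Klhl17, Poglut3-4930550C14Rik and Tmem210-Lrrc26 each had a peak in 1 TG library only, of 200 to 249 bp in the region.

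Among head-to-head pairs with flanks marked on average over the 8 libraries, bare gaps were more frequent where the gap was rich in G and C. Sequence was at hand for the whole gap of 417 head-to-head pairs, of which 382 had both flanks covered by at least 50% on average. It required a promoter sequence of 300 bp that held the whole gap, so long gaps were left out. Among 118 gaps with a G+C content of 70% or more, 37.3, 11, 6.78 and 2.54% had no peak in TG replicates 1 to 4, and 15.3, 11.9, 15.3 and 0.847% in WT replicates 1 to 4. Among 100 gaps of 50 to 60%, the shares were 9, 4, 1 and 1% in TG and 3, 3, 4 and 0% in WT libraries. All 8 libraries had a higher share in the richer class, with the largest step in TG replicate 1 and the smallest in WT replicate 4. The 32 gaps under 50% had shares of 3.13 to 9.38% in TG and 3.13 to 9.38% in WT libraries, which at 1 gap per 3.13% is too coarse to order. Gap length was not held fixed, nor was flank coverage within the single library. Over all head-to-head pairs, some bare gaps had both flanks at least 50% covered in the same library. These were 48 of 119, 21 of 63, 13 of 46 and 7 of 36 in TG replicates 1 to 4. In WT replicates 1 to 4 they were 24 of 70, 20 of 69, 28 of 70 and 5 of 36. Of the gaps with sequence, those marked in all 8 had a median length of 79 bp and a median G+C content of 62.5%. Those marked in some libraries had medians of 57 bp and 70.8%. The pairs share their libraries, so these are descriptions, and the parts of gap length and of library preparation were not tested.

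**Figure D4:**
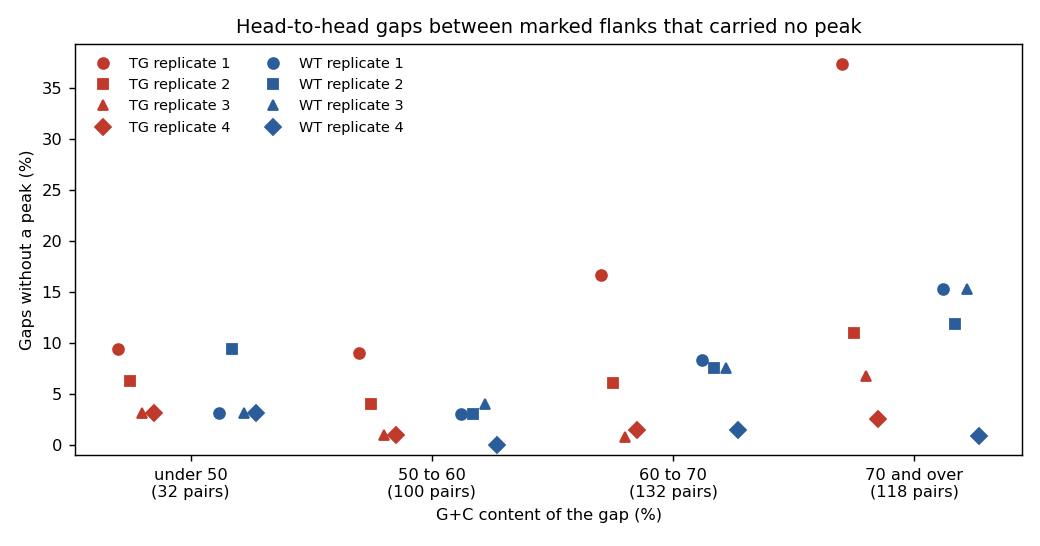
Percent of head-to-head gaps without a peak (y axis) by G+C content of the gap (x axis, 4 classes with the number of pairs). The pairs had both flanks covered by at least 50% on average over the 8 libraries. Each symbol is 1 library, TG in red left of WT in blue. In the class of 70% and over, TG replicate 1 reaches 37.3% while replicate 4 of TG and WT stays at 2.54% and 0.847%.

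The promoters of marked close pairs, head to head or head to tail, were richer in CpG and in several short motifs than coding promoters at large. The marked sets were chosen for peaks and the coding promoters were not. A trait of marked promoters thus cannot be told apart from one of close pairs, and marked standalone promoters were not compared. Sequences of 300 bp ran from 250 before to 50 after an annotated start. Only starts exactly at the gene's own end were taken, 1 per gene. This gave 495 starts of head-to-head pairs marked in all 8 and 9841 coding starts in all. The median G+C content was 61.0% with 23 CpG in head-to-head promoters marked in all 8, and 54.3% with 10 CpG over all coding promoters. Promoters of head-to-head pairs marked in some libraries were richer still (109 promoters, 69.3% and 34 CpG), and those of pairs marked in none were poorer in CpG (29 promoters, 53.7% and 6 CpG). Motifs were searched as exact letters on both strands.

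GGGCGG, the box that Sp1 binds, was in 66.7% of head-to-head promoters marked in all 8, against 41.7% of all coding promoters. CCGGAAG, an ETS-type site, was in 29.7% of them, against 10.7% of all. GCATGCGC, most of the NRF1 palindrome, was in 7.47% of them, against 3.21% of all, and TGACGTCA, the palindrome that CREB binds, in 3.43%, against 2.33% of all. AAGATGGC, a YY1-type element, was in 10.3% of them and in 12.8% of the class marked in some libraries, against 3.11% of all. Heads of head-to-tail pairs marked in all 8 (124 promoters) had a median G+C content of 59.3%, 19 CpG, GGGCGG in 67.7%, CCGGAAG in 26.6%, GCATGCGC in 7.26%, TGACGTCA in 5.65%, AAGATGGC in 6.45% and TATAAA in 8.06%. In head-to-head promoters TATAAA went the other way, with 5.05% of promoters marked in all 8, 20.7% of those marked in none and 17.4% of all. CCAAT was in 43.6% of those marked in all 8 and 69.0% of those marked in none, against 40.5% of all. The promoters at the 2 heads of a short gap overlap and so share letters, and a match is not evidence of binding.

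The 28 head-to-head pairs without any gap peak were of several kinds. In 14 no library had a peak anywhere in the region, among them H2bc1-H2ac1, Bhmt2-Dmgdh (enzymes of the betaine and choline pathway of liver), 2 pairs of major urinary protein genes and Olfr181-Olfr183. Some of the 14, singled out after their values were seen, hold a gene known in neurons: Slc30a3-Dnajc5g with the zinc transporter of synaptic vesicles, and Ngef-Neu2 with a guanine exchange factor of axon guidance. In 2 pairs both flanks were at least 50% covered on average over the 8 libraries, and the gap was bare in each library. Within single libraries, TG replicate 1 had 1 pair with such flanks among all 854 bare gaps, and each other library had 2. Ggps1-Arid4b held 2861, 3166, 3179 and 3156 bp in TG and 2972, 3131, 2934 and 3220 bp in WT libraries, with 0 bp of its 42-bp gap in any. Nfya-Oard1, with the A subunit of the CCAAT-binding factor NF-Y, held 2252, 2431, 2594 and 2634 bp in TG and 2180, 2781, 2612 and 2572 bp in WT libraries, with 0 bp of its 136-bp gap. Annotated starts lay within 50 bp of both facing ends in 11 of the 28, in 58 of the 106 pairs marked in some libraries and in 259 of the 413 marked in all. In the others an annotated start lay further inside a gene.

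Among other bare gaps, Wdr83os-Man2b1 (head to tail) and Ppp1r14b-LOC114841036 (tail to tail) were marked further out, with means of 2381 ± 173.0 bp in TG and 2448 ± 173.3 bp in WT libraries for Wdr83os-Man2b1 and of 2439 ± 214.2 bp in TG and 2179 ± 157.8 bp in WT libraries for Ppp1r14b-LOC114841036. Tmem223-Tmem179b, of unknown orientation, averaged 2346 ± 332.8 bp in TG and 2338 ± 274.8 bp in WT libraries. The shortest gaps with no peak in the region, of 1 or 2 bp, were those of Ints14-Hacd3, Vill-Plcd1, Ubn1-Ppl, Nelfe-Cfb and Apoe-Tomm40.

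The 8 tail-to-tail pairs marked in all 8 were mostly pairs with a short gene. In 6 of the 8 at least 1 gene was shorter than the 2 kb measured on its side, so that its own start lay inside the region, against 30 of the 392 tail-to-tail pairs with a bare gap (7.65%). Wnk4-Coa3 is an example: Coa3, a factor of cytochrome oxidase assembly, spans chr11:101277970-101278948, its flank was 100% covered and that of Wnk4 0%, and the summit lay on the side of Coa3 in all 8. Prr7-Dbn1, with the dendritic spine protein drebrin, and Duox1-Shf were the 2 without a short gene. Duox1-Shf had its summit in the gap in 7 of 8 libraries. In Ubxn11-Sh3bgrl3, singled out after its values were seen, the gap of 621 bp was covered by 621, 521, 352 and 531 bp in TG and by 143, 127, 409 and 323 bp in WT libraries, and the groups overlapped there. Its whole region held 2625, 2521, 2552 and 2531 bp in TG and 2143, 2127, 2409 and 2323 bp in WT libraries, without overlap, at a limma adjusted p of 0.920.

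Gene groups taken by symbol are set here against the share marked in all 8 libraries, which was 42% over all pairs and 75.5% over head-to-head pairs, and no difference from these shares was tested. Of 90 pairs with a mitochondrial gene (ribosome, respiratory chain, import), 58 were marked in all 8, 9 in some and 23 in none, and of the 42 head-to-head ones 41 were marked in all 8. DNA repair and replication genes had 31 pairs, of which 16 were marked in all 8, 8 in some and 7 in none, and 12 of 16 head-to-head ones in all 8. Cytosolic ribosomal protein genes had 20 of 33 pairs marked in all 8, ubiquitin system genes 21 of 35, zinc finger genes 21 of 38, histone genes 16 of 26, traffic genes 21 of 41, proteasome genes 10 of 20, chaperone genes 11 of 25 and tRNA synthetase genes 6 of 14. The shares of several of these groups lay near that over all pairs. Solute carrier genes had 20 of 65, with 35 in none. Families of other tissues had too few pairs to compare, with 0 of 2 keratin, 0 of 5 olfactory receptor, 0 of 1 defensin and 1 of 2 serpin pairs marked in all 8. No vomeronasal receptor pair met the rule.

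The comparison of TG with WT libraries asked whether the transgene goes along with wider or narrower marks at close pairs. No pair passed the test. Covered length was tested as log2(bp + 100 bp) with limma, centred on each library's median over regions marked in all 8, with Benjamini-Hochberg adjustment over all 15862 regions that had a peak in at least 4 libraries. Of 1279 pairs tested, 0 were called wider and 0 narrower in TG libraries at an adjusted p under 0.05, and over all regions 0.0% were called in each direction. At an unadjusted p under 0.05, 13 pairs (1.02%) were wider and 25 (1.95%) narrower in TG libraries, against 3.52% and 1.84% of all regions. Without centring the split was 32 wider and 5 narrower of 1279 pairs, against 686 and 54 of all 15862 regions tested. With regions of 1 kb to each side it was 22 and 7 of 1180 pairs, against 421 and 120 of 14288. It was 17 and 40 of 1273 pairs without TG replicate 1, against 502 and 380 of 15622. Without WT replicate 1 it was 20 and 20 of 1273 pairs, against 518 and 211 of 15719. Without TG replicate 4 it was 14 and 16 of 1268 pairs, against 651 and 259 of 15621. TG and WT libraries did not overlap in 19 pairs (1.49%) that were higher and 7 (0.547%) that were lower in TG, against 2.34% and 0.498% of all regions. No gap and no pair region had a peak in all 4 libraries of one genotype and in none of the other, which 0.0406% of all regions had for TG and 0.00254% for WT.

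The median log2 difference of TG minus WT was −0.02 over the pairs and −0.01 over all regions. Of the pairs, 522 were above 0 and 757 below, and of all regions 7089 were above and 8773 below. Without centring both medians were above 0, at 0.01 over the pairs and 0.02 over all regions. There 730 pairs were above 0 and 549 below, against 9095 and 6767 of all regions. The balance of directions thus depends on the centring and leaned the same way over all regions. The 95% interval of the difference lay within a 1.5-fold change in either direction in 1108 of the 1279 pairs tested (86.6%), against 74.6% of all regions. It did so in 511 of the 527 head-to-head pairs tested, of 547, and in 410 of the 413 marked in all 8, a class chosen for peaks in every library. In each of the gene groups above, 0 pairs were called.

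The pairs with the smallest p for a wider mark in TG libraries were named by rule, since none passed. Adprhl2-Tekt2 (chr4, head to tail), with a hydrolase of ADP-ribose chains and a tektin of cilia, held 1095, 1255, 1513 and 1441 bp in TG and 916, 1016, 899 and 994 bp in WT libraries. All TG values exceeded all WT values. The log2 difference was 0.40 (SE 0.08) with an adjusted p of 0.462 by limma. Its gap of 417 bp was covered by 264, 296, 361 and 339 bp in TG and by 0, 0, 0 and 62 bp in WT libraries, the clearest difference at a gap among the named pairs.

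Ceacam20-Nlrp9b held 2858, 2218, 1965 and 1323 bp in TG and 502, 1267, 658 and 732 bp in WT libraries, again without overlap. The log2 difference was 1.29 (SE 0.29, limma adjusted p = 0.469). Its gap was marked in TG replicates 1 and 2 alone. Dad1-Abhd4, a subunit of oligosaccharyltransferase beside a lipid hydrolase, held 1489, 1889, 1624 and 1849 bp in TG and 1341, 1348, 1369 and 1540 bp in WT libraries, where WT replicate 4 exceeded TG replicate 1. Its log2 difference was 0.24 (SE 0.07, limma adjusted p = 0.626). Zfp654-Cggbp1 had a log2 difference of 0.14 (SE 0.04) and Hsf4-Nol3 of 0.19 (SE 0.07), with limma adjusted p of 0.603 and 0.871.

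For a narrower mark in TG libraries, Atp5c1-Kin held 2650, 2712, 2907 and 2674 bp in TG and 2972, 3024, 2971 and 3160 bp in WT libraries. The groups did not overlap, and the log2 difference was −0.17 (SE 0.05, limma adjusted p = 0.577). Its gap of 40 bp was covered whole in all libraries but TG replicate 1, which covered 24 bp. Bphl-Tubb2a (tail to tail), with a beta-tubulin gene, held 591, 740, 599 and 607 bp in TG and 739, 875, 825 and 1170 bp in WT libraries, all outside the gap. Casc1-Etfrf1 held 1166, 1566, 1306 and 1249 bp in TG and 1630, 1567, 1674 and 1538 bp in WT libraries, with 1 TG value inside the WT range. Btf3l4-Txndc12 had a log2 difference of −0.14 (SE 0.05) and Pacs1-Sf3b2, with a splicing factor subunit, of −0.21 (SE 0.07). Limma adjusted p was 0.701, 0.700, 0.759 and 0.791 for these 4 pairs in the order named.

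**Figure D5:**
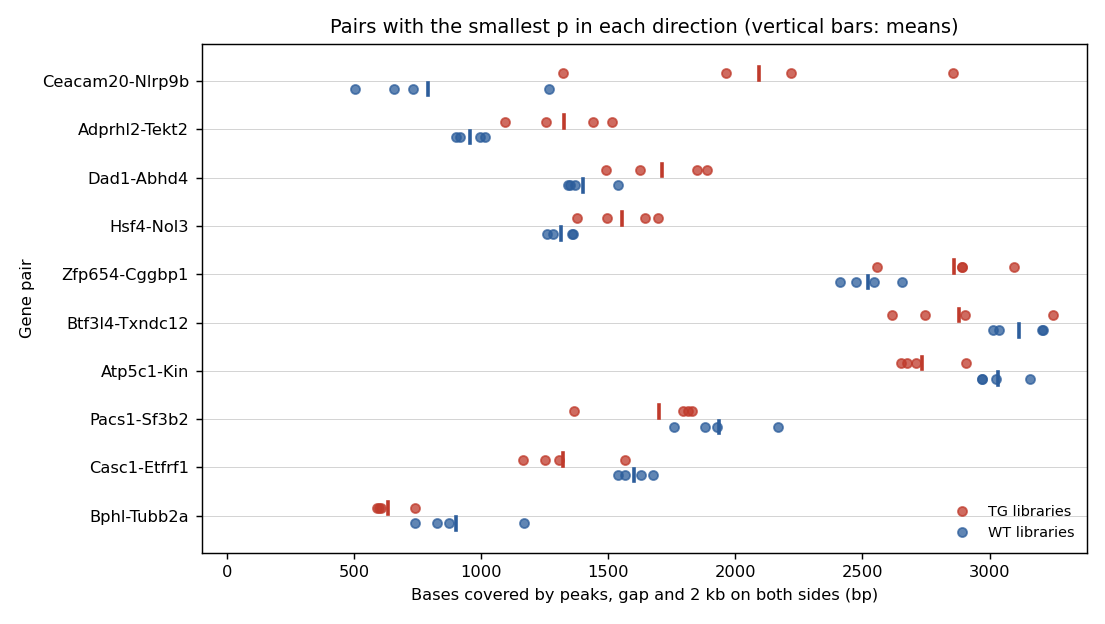
Bases covered by peaks in the gap and 2 kb on both sides (x axis, bp) for the 5 pairs with the smallest p in each direction (y axis); each point is 1 library, TG in red above WT in blue, and vertical bars are group means. The upper 5 pairs lean to higher TG values and the lower 5 to lower ones; the pairs were picked for this, and none passed the test after adjustment.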

How the data were processed

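The submitters' processing notes name the build mm10 and list MACS2, Bowtie2 2.0.2, deepTools 3.0.1, FastQC 0.11.5, limma, SAMtools 1.3.1 and DiffBind. The sources used here do not give settings, nor which library was the background of which list. For each library the authors deposited a headerless list of peaks in the MACS2 layout: position, score, fold enrichment at the summit, −log10 p-value, −log10 q-value and summit offset. The deposited score was not used, the fold enrichment and −log10 p-value served to rank peaks within a list, and the −log10 q-value served for a stricter alternative. Depth is unknown in the absence of counts, and the number and width of called peaks generally move with depth and with how well the precipitation worked. The group names of the labels and of the lists match, while their letters do not. The 2 input libraries, 1 per genotype, were not analysed here.

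Touching peaks were merged and covered bases counted with Python 3.11.15 (pandas 2.3.3, numpy 2.4.6). Gene positions, strand and promoter sequences came from RefSeq tables of GRCm38.p6; strand came from the promoter table, which lacks some genes. Covered length was tested with limma 3.58.1 in R 4.3.3 (trended, robust variance, no block) over all 39372 regions, of which those with a peak in at least 4 libraries entered; the fit was tested on simulated data. Fold changes on the log2(bp + 100 bp) scale understate the change of thinly covered regions. The pairs, lists and rules were chosen with earlier results of these data known. Named pairs were, in each direction, the 5 of smallest p, then the 5 widest, narrowest, deepest and least dipped, the listed long-known and H2A-H2B pairs, any present in only one genotype, and the extremes of the bare and partly marked classes. Alternatives were leaving out each library, stricter and equal-number peaks, gaps of up to 500 bp, other pseudocounts, no centring, no filter, the replicate block, ordinary variances, other flanks and a stricter gap overlap. The loss of TG replicate 1 by orientation was added after seeing the data.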

Additional observations from a re-analysis of the deposited data

Results flagged for a closer look

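In each genotype the lowest or highest of the 4 libraries was checked for a gap to the other 3 that filled more of the group's range than Dixon's critical value for 4 samples allows. Chance gives such a gap in about 1 in 20 groups; 24 were found among 139, and many of the 139 share libraries and regions.

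Across pairs, TG replicate 1 and WT replicate 4 stood off most often. TG replicate 1 had a dip of −6.40 percentage points at head-to-head gaps marked in all 8 libraries, against −1.16 to −0.41 in the other TG libraries. Of these pairs with both flanks at least 50% covered in the library, 30.4% had a gap not covered from end to end, against 7.46 to 10.8%. WT replicate 4 marked the gap of 1045 pairs, against 969 to 974 in the other WT libraries, and of 511 head-to-head pairs, against 477 to 478. The percent of the gap that it covered, averaged over head-to-head pairs, was 87.6%, against 77.5 to 78.5%. Its dip over all head-to-head pairs was −2.57 points, against −8.68 to −7.94. Among gaps with a G+C content of 60 to 70%, it left 1.52% without a peak, against 7.58 to 8.33%. WT replicate 2 left 9.38% of gaps under 50% without a peak, against 3.13% in the others.

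Single regions stood off as follows, in bp covered. In TG replicate 1, Ggps1-Arid4b had 2861 (others 3156 to 3179), Pacs1-Sf3b2 1365 (others 1792 to 1828) and H2bc23-H2ac23 165 (others 300 to 304). In TG replicate 2, Ppp1r14b-LOC114841036 had 2118 (others 2537 to 2560), Bphl-Tubb2a 740 (others 591 to 607) and Tmem210-Lrrc26 200 (others 0). In TG replicate 3, H3c15-H2ac19 had 370 (others 582 to 603), Plekhn1-Klhl17 246 and Poglut3-4930550C14Rik 249 (others 0). In WT replicate 1, Brca1-Nbr1 had 1902 (others 2176 to 2223). In WT replicate 2, Xrcc3-Zfyve21 had 1937 (others 1791 to 1811), Nbeal2-Ccdc12 1455 (others 1692 to 1738) and H2bc23-H2ac23 173 (others 293 to 302). In WT replicate 3, Pdcd10-Serpini1 had 3578 (others 3475 to 3483). In WT replicate 4, H3c15-H2ac19 had 877 (others 362 to 369) and Dad1-Abhd4 1540 (others 1341 to 1369).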

How the results depend on the processing

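No pair was called under any of the 18 other settings of the limma fit, and 301 of 317 values stayed the same, meaning within 1.5 times for a count, within 1 SD for a dip, and on the same side of 0 and of the threshold for a named pair. The size of a named pair's log2 difference could still move, from −0.18 to −0.02 for Btf3l4-Txndc12, from 0.04 to 0.17 for Zfp654-Cggbp1 and from 0.98 to 2.29 for Ceacam20-Nlrp9b. Leaving out 1 library at a time gave 0 to 0 calls in each direction, 823 to 898 pairs marked in all libraries, 204 to 276 in some and 856 to 862 in none. The dip at head-to-head gaps then ran from −2.81 to −1.27 points in TG and from −2.08 to −0.84 in WT libraries; the WT value of −2.08 came without TG replicate 1, which admits other pairs to the class. Asking for the whole gap to be covered left 368 pairs marked in all and 451 in some, and gaps of 1 to 500 bp left 529 bare, since fewer pairs qualify. With a flank of 1000 bp the dip turned to 7.79 points in TG and 9.74 in WT libraries; in WT libraries it was −2.30 with 250 bp and −3.22 over gaps of at least 100 bp. At an unadjusted p under 0.05, wider and narrower pairs numbered 32 and 5 of 1279 without centring, against 686 and 54 of 15862 regions. They numbered 22 and 7 of 1180 with regions of 1 kb to each side, against 421 and 120 of 14288. Without TG replicate 1 they numbered 17 and 40 of 1273, against 502 and 380 of 15622. Without WT replicate 1 they numbered 20 and 20 of 1273, against 518 and 211 of 15719. Narrower pairs numbered 16 of 1268 both without TG replicate 4 and with equal numbers of peaks. Over all regions these were 259 of 15621 and 219 of 15418. The cause was not tested. After subtraction of the group mean, same-numbered TG and WT libraries correlated at 0.036, −0.015, −0.035 and 0.235. Of the same-numbered libraries, only those numbered 4 correlated best with each other. Such correlations cannot decide whether the libraries were handled in pairs. A replicate block gave 0 calls. At an unadjusted p under 0.05 it gave 13 wider and 24 narrower of 1279 pairs, against 617 and 267 of 15862 regions. Without counts, depth limits of single values cannot be given.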
